A study of Mus musculus with 2 samples.

Results

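Genes whose array symbol starts with Zfp and a number are mouse genes that were named as zinc finger proteins. They were examined in G1E-ER-GATA-1 cells after knockdown of the corepressor ETO2. The array carried 502 probes for 264 such gene names. A name was kept where a probe stood well above background in the same channel on both arrays, and its brightest kept probe stood for it. This left 217 genes of 16640 genes and transcripts tested, and 47 names were too dim. Both channels were well above background on both arrays for 212 of the 217, and none of the 217 was saturated.

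Most Zfp proteins carry C2H2 zinc fingers, short folds in which pairs of cysteines and histidines hold a zinc ion, and strings of such fingers read DNA sequence. Many also carry a KRAB domain, which recruits TRIM28 and with it histone methyltransferase and HP1 proteins that silence chromatin, often over transposable elements. The name does not mark a single family. Zfp36 and its relatives have CCCH fingers that bind AU-rich elements and speed mRNA decay. By the RefSeq gene table of GRCm38.p6, 25 of the 217 genes now have another symbol, among them Rnf114 (listed as Zfp313), Rnf115 (Zfp364) and Ltn1 (Zfp294), which are ubiquitin ligases, and Arfgap2 (Zfp289), which activates the GTPase of ARF proteins. Zfp58 and Zfp817 now share a current symbol and were kept as 2 members by array name, so that gene is counted under both names. Zfp58 rose (0.27, on a probe that encodes part of a zinc finger), while Zfp817 did not pass the test (-0.10). Array names are used here.

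G1E is an erythroid line without GATA-1, and all cells of the study share that loss and carry a fusion of GATA-1 with the ligand-binding part of the oestrogen receptor. Cells received control siRNA or siRNA against ETO2 (gene Cbfa2t3), a corepressor that binds GATA-1 complexes, and then β-estradiol for 24 h, which activates the fusion protein. Each of 2 arrays set 1.2 µg of control RNA in Cy5 (red) against 1.2 µg of ETO2 siRNA RNA in Cy3 (green), with no dye swap, so a dye effect of a probe enters both ratios with 1 sign. The labels number the arrays as replicates of this single line without saying whether the cultures were separate, so p-values may measure technical spread only. The labels' cell type field calls the cells murine ES cells and their tissue field erythroid. All 8 erythroid marker genes looked up were measured, whereas Pou5f1, Nanog, Sox2, Lin28 and Zfp42 had no probe that passed the filter and Dppa5a alone of 6 embryonic stem cell markers was measured. The targeted gene Cbfa2t3 was lower, with a ratio of -0.42 ± 0.05 (SD, n = 2 arrays; limma adjusted p = 8.45e-05). In bulk RNA, fewer cells of a type and less RNA per cell cannot be told apart.

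Ratios are log2 of ETO2 siRNA over control siRNA. Levels are normalized log2 signals of one channel, and they rank no gene against another because probes differ in brightness. "Rose" and "fell" mean an adjusted p under 0.05 in limma, adjusted over all 16640 genes. The smallest two-sided p that sign permutation of 2 arrays allows is 0.5, and every adjusted p rests on limma's shared estimate of variance.

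The probe sequences show what several of the measurements read. For 25 of the 217 genes, the array's 60-base probe encodes, in a frame without a stop, a match to a piece of the C2H2 finger. The pieces are the linker Thr-Gly-Glu-Lys/Arg-Pro between fingers, the cysteine pair followed by an aromatic residue, or the aromatic-leucine-histidine end of the finger. They were matched by letters alone, without a check of the coding frame. The 7 probes with a linker, printed with the linker in capitals because the linker is the most repeated piece of these genes, are
Zfp273: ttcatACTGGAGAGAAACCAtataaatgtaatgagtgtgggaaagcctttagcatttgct
Zfp52: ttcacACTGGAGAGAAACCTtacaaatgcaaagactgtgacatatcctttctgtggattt
Zfp51: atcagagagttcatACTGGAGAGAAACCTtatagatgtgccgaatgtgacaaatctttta
Zfp72: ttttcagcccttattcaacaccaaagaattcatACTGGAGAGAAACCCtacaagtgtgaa
Zfp74: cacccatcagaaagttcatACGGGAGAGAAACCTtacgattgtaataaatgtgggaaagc
Zfp2: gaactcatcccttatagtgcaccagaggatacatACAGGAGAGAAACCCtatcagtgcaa
Zfp248: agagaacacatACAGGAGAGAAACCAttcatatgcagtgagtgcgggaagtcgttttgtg
The probes with a cysteine pair for 2 of the largest rises, with the piece from the first cysteine to the aromatic residue in capitals, are
Zfp617: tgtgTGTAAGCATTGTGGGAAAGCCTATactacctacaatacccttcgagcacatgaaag
Zfp563: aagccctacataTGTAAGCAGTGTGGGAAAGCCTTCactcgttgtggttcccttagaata
Aligned by their linkers, pairs of the 7 linker probes overlapped over 31 to 60 bases and were identical at between 63.0% and 84.8% of the overlapping bases. Each overlap holds the linker by which the probes were chosen, so part of this identity was fixed in advance. The values of these probes are given with the finger-encoding group further on.

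After ETO2 siRNA the Zfp genes moved in both directions and by small amounts. Of 217, 87 passed the test (40.1%), against 40.7% of all genes. There were 38 rises (17.5%), against 18.4% of all genes, and 49 falls (22.6%), against 22.3%. At an unadjusted p under 0.05 there were 106 genes (48.8%), against 8059 of all genes (48.4%). The 87 had the same sign on both arrays, and 83 of them changed by less than 1.5-fold. On both arrays, 2 genes were at least 1.5-fold lower and none higher, which is 0.922% of the Zfp genes and 2.55% of all genes. No Zfp gene changed at least 2-fold on both arrays, while 25 of all genes were that much higher and 38 lower.

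The median log2 ratio of the Zfp genes was -0.03, with quartiles at -0.14 and 0.11, and that of all genes was -0.02, with quartiles at -0.15 and 0.11. The Zfp ratios ran from -0.81 to 0.62. Between arrays, Pearson r was 0.80 across the 217 genes, which are not independent replicates, and 0.861 across all genes. The split between rises and falls depended on the scaling. With median centring in place of loess, 5 Zfp genes rose and 166 fell, so that 2.92% of calls were higher against 43.7% with loess. Among all genes these shares were 4.13% and 45.2%. Median centring moved the median of all genes to -0.31 and left the Zfp median 0.07 below it. On the scanner's processed signals 12 rose and 13 fell.

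**Figure D1:**
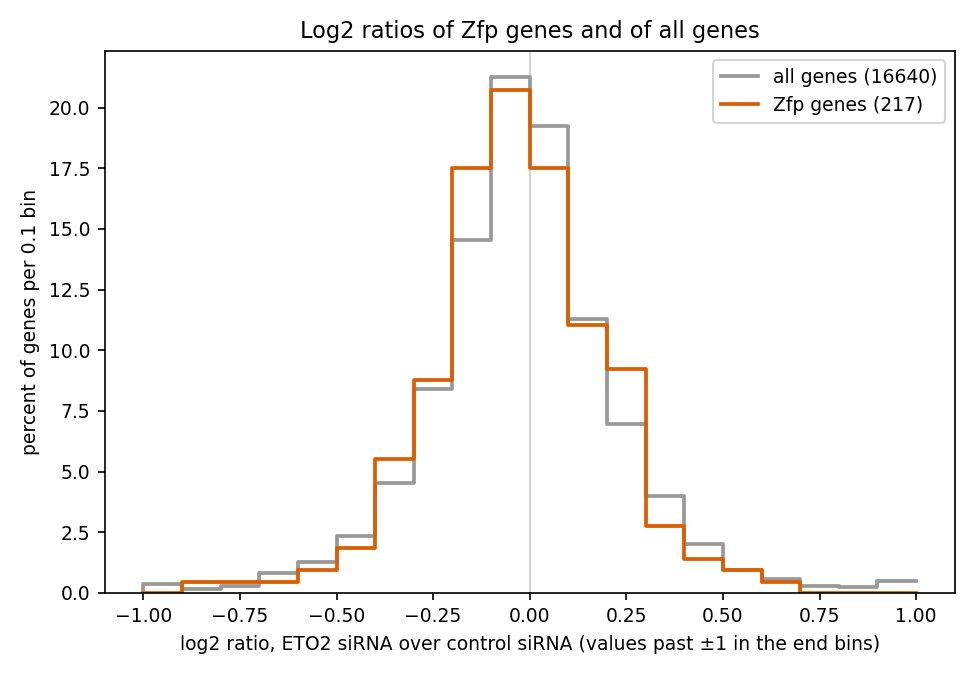
Percent of genes in each bin of 0.1 of the log2 ratio (ETO2 siRNA over control siRNA, mean of 2 arrays) for the 217 Zfp genes and all 16640 genes. The curves lie close to each other around medians of -0.03 and -0.02, and no Zfp gene lies beyond -0.81 or 0.62; with median centring these medians are -0.38 and -0.31.

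Of the 2 genes at least 1.5-fold lower on both arrays, Zfp1 had the largest fall. Its level was 7.15 with ETO2 siRNA and 8.003 with control siRNA on array 1, and 7.24 and 8.02 on array 2. The ETO2 siRNA channel was lower on both arrays, and the log2 ratio was -0.81 ± 0.05 (SD, n = 2; limma adjusted p = 1.47e-07), or 57.0% of control. Zfp1 was dim, and without the offset of 50 that the background correction adds to both channels its ratio was -1.11.

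Zfp36 encodes tristetraprolin, a CCCH protein that binds AU-rich elements of cytokine and other mRNAs and recruits the deadenylation machinery. Its level was 8.16 with ETO2 siRNA against 9.06 with control siRNA on array 1, and 8.32 against 8.96 on array 2. The channels did not overlap, and the log2 ratio was -0.77 ± 0.18 (adjusted p = 8.60e-07), or 58.5% of control. A second, dimmer probe of Zfp36 read -0.28. Its relatives did not pass the test on their brightest probes. Zfp36l2, which mouse erythroid progenitors need for self-renewal, stood at -0.11 on array 1 and -0.10 on array 2 (adjusted p = 0.182), and Zfp36l1 at -0.10 and 0.12 (adjusted p = 0.952). A second Zfp36l1 probe, nearly as bright, read 0.22 and 0.50, so the probes of Zfp36l1 disagreed.

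Zfp706, known in mouse embryonic stem cells for its part in the exit from self-renewal, was among the 5 brightest Zfp genes. Its level was 13.43 with ETO2 siRNA against 14.12 with control siRNA on array 1, and 13.33 against 13.90 on array 2. It was lower on both arrays, at a log2 ratio of -0.64 ± 0.08 (adjusted p = 2.16e-06). A second probe read -0.21.

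Zfp652 is the mouse counterpart of human ZNF652, a DNA-binding repressor that binds CBFA2T3, the human ETO2, as its corepressor. Its level was 8.56 with ETO2 siRNA against 9.02 with control siRNA on array 1, and 8.32 against 8.86 on array 2. Zfp652 was lower on both arrays, by a log2 ratio of -0.50 ± 0.06 (adjusted p = 1.90e-05), and its second probe read -0.14. Zfp608, which represses the recombinase genes Rag1 and Rag2 in mouse thymocytes, stood at 7.58 against 8.08 on array 1 and 7.61 against 8.08 on array 2. Its log2 ratio was -0.48 ± 0.02 (adjusted p = 2.45e-05) on the brightest probe, while a second probe read -0.01.

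Zfp710 had a level of 10.98 with ETO2 siRNA against 11.42 with control siRNA on array 1, and 10.89 against 11.52 on array 2. Its fall was -0.53 ± 0.14 (adjusted p = 1.90e-05), and a second probe read -0.16. The other 6 of the 12 largest falls lay between -0.45 and -0.37. Each of these 6 was lower on both arrays. They were Zfp41 (-0.45 ± 0.15), Zfp628 (-0.42 ± 0.07), Zfp740 (-0.42 ± 0.10), Zfp444 (-0.39 ± 0.19), Zfp28 (-0.38 ± 0.04) and Zfp553 (-0.37 ± 0.08). Human ZNF444 binds the promoter of an endothelial scavenger receptor. Zfp444 had a second probe at 0.04, and Zfp553 had others at -0.66 and -0.08. Zfp1, Zfp41, Zfp628, Zfp740 and Zfp28 had 1 kept probe each, so no second probe bears on them. On the processed signals 8 of the 12 falls passed, while Zfp41 (-0.24), Zfp628 (-0.15), Zfp740 (-0.36) and Zfp553 (-0.27) did not. Under median centring the 12 stood between -0.91 and -0.27 relative to the median of all genes.

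**Figure D2:**
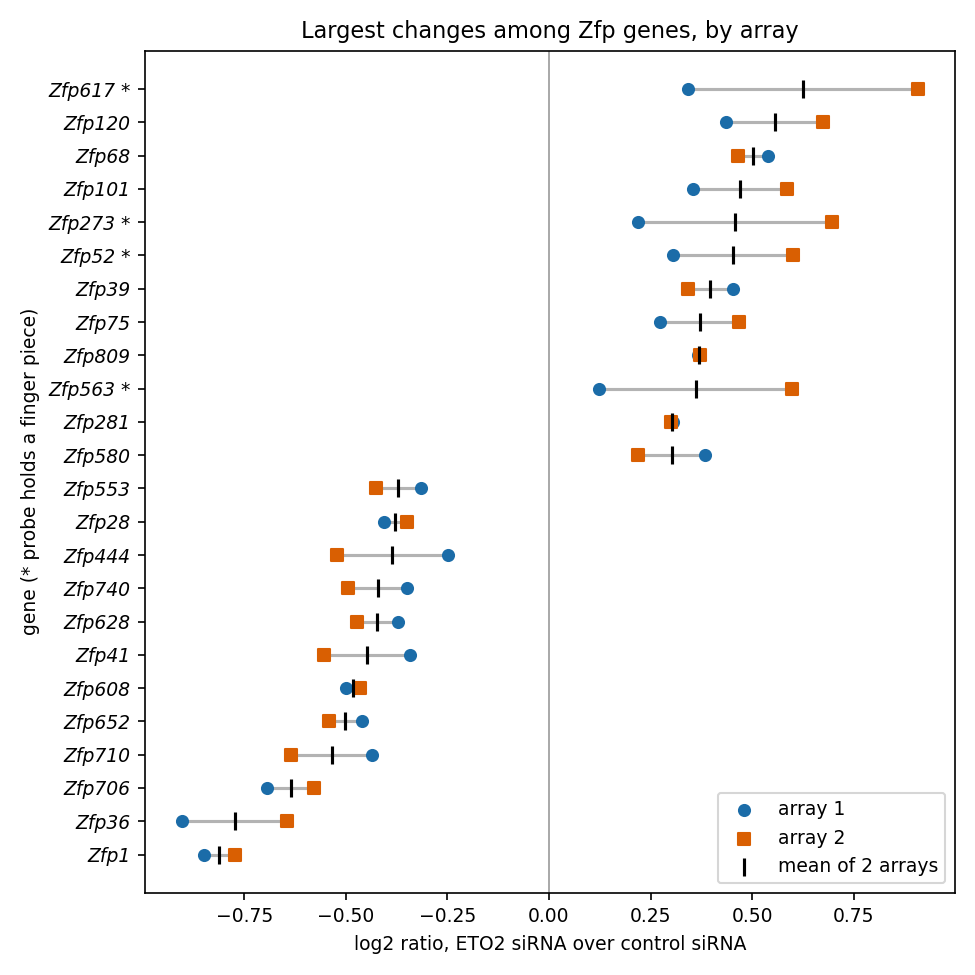
Log2 ratio of ETO2 siRNA over control siRNA on array 1 (circles) and array 2 (squares), with the mean as a tick, for the 12 largest rises and 12 largest falls among Zfp genes; a star marks a probe that holds a finger piece. The 4 starred genes, Zfp617, Zfp273, Zfp52 and Zfp563, have the widest gaps among the rises, and on array 2 they lie between 0.60 and 0.91; under median centring 8 of the 12 rises lie below 0.

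Zfp617 had the largest rise. Its level was 10.40 with ETO2 siRNA against 10.06 with control siRNA on array 1, and 10.34 against 9.43 on array 2. The log2 ratio was higher on array 2 (0.91) than on array 1 (0.34), with a mean of 0.62 ± 0.40 (SD, n = 2; adjusted p = 0.000121). Its brightest probe encodes a cysteine pair, as printed above, but a second probe without a finger piece read 0.48, also higher on array 2 (0.76) than on array 1 (0.21).

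Zfp120 and Zfp68 followed. Zfp120 had a level of 10.69 with ETO2 siRNA against 10.25 with control siRNA on array 1, and 10.80 against 10.13 on array 2, a log2 ratio of 0.56 ± 0.17 (adjusted p = 1.83e-05) from a single probe. Zfp68 stood at 12.21 against 11.67 on array 1 and 12.23 against 11.77 on array 2, a log2 ratio of 0.50 ± 0.05 (adjusted p = 1.81e-05). The probes of Zfp68 disagreed. A second, dimmer probe that holds a finger piece read -0.40 on array 1 and -0.27 on array 2, and with the probes averaged the gene stood at 0.08 and did not pass (adjusted p = 0.256).

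Zfp101 rose by a log2 ratio of 0.47 ± 0.16 and Zfp39 by 0.40 ± 0.08, each from a single probe without a finger piece and each higher on both arrays. Zfp75, the gene now called Zfp317, rose by 0.37 ± 0.14, with other probes at 0.28 and 0.13. Zfp809 recruits TRIM28 to the primer binding site of murine leukaemia viruses and silences them in mouse embryonic stem cells. Its level was 11.06 with ETO2 siRNA against 10.69 with control siRNA on array 1, and 10.98 against 10.61 on array 2. The arrays gave nearly equal ratios, 0.37 on each (SD 0.0036; adjusted p = 0.000249), and a second probe read 0.25. Zfp281, a factor that binds GC-rich promoters and represses Nanog in mouse embryonic stem cells, rose by 0.30 on each array (SD 0.0021; adjusted p = 0.00121). Zfp580 rose by 0.30 ± 0.12.

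Not all of these rises passed under other scaling. On the processed signals Zfp39, Zfp617, Zfp68 and Zfp75 passed and the other 8 of the 12 stayed above 0 without passing. The size of the ratio was not always smaller there: Zfp273 read 0.55, Zfp563 0.48 and Zfp580 0.32, while Zfp281 read 0.10. Under median centring Zfp617 alone passed with a ratio above 0 (0.21). Zfp120, Zfp273 and Zfp101 lay above 0 without passing, the other 8 lay below 0, and Zfp281 among these passed as lower (-0.18, adjusted p = 0.0339). Relative to the median of all genes under that scaling, the 12 stood between 0.13 and 0.52.

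The 25 genes whose brightest probe encodes a finger piece differed from the other Zfp genes in their values. In the group of 25 there were 10 rises and no fall, and the median ratio was 0.11. Of the 192 others, 28 rose and 49 fell, with a median of -0.05. Of all genes 18.4% rose and 22.3% fell, with a median of -0.02. The grouping by probe sequence was made after the values were seen, and it has no test. Under median centring the medians of the 25 and the 192 turned to -0.18 and -0.40, and the counts became 1 rise and 13 falls against 4 and 153. Of all 16640 genes 466 rose and 10830 fell under that scaling. On the processed signals 3 of the 25 rose and none fell, with medians of 0.18 and -0.03 for the 2 groups. Of all genes 1198 rose and 1280 fell on those signals.

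The same probes also differed between arrays. The ratio was higher on array 2 than on array 1 for 23 of the 25, by a median of 0.14, and for 97 of the 192 others, by a median of 0.0016. The median SD between arrays was 0.117 for the 25 and 0.0653 for the 192. For the 7 probes with a linker, 6 genes rose (Zfp273, Zfp52, Zfp51, Zfp72, Zfp74 and Zfp2) and Zfp248, at -0.11, did not pass. All 7 were higher on array 2, by a median of 0.29. Zfp273 read 0.22 on array 1 and 0.70 on array 2, Zfp51 read 0.07 and 0.46, and Zfp72 read 0.04 and 0.43.

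Among genes with other names, 15 had a linker probe, of which 14 were higher on array 2, by a median of 0.42, while all genes had a median difference of -0.01. Matches to any finger piece were found in probes of 189 genes with other names, the 15 included. Such a match of letters need not come from a zinc finger gene. Of the 189, 110 were higher on array 2, by a median of 0.03, with 48 rises and 30 falls. Of the 15, 8 rose and 1 fell, where 18.4% of all genes rose and 22.3% fell. The one that fell, Klf13, was also the one not higher on array 2 (-0.46 on array 1 and -0.54 on array 2). Other probes of the same genes did not always move with the finger probes. Zfp273 rose by 0.46 ± 0.34 on its linker probe, and its other probes read -0.12 and 0.14. Zfp52 rose by 0.45 ± 0.21 on its linker probe and read -0.0015 on the next. Zfp74 rose by 0.23 on its linker probe, with others at -0.16 and -0.10. Zfp51 rose by 0.26 on its linker probe and read 0.41 on a probe without a finger piece. The other probe of Zfp2, at 0.12, also holds a linker. Whether these probes bind transcripts of several finger genes was not tested. With all finger-encoding probes left out, an alternative chosen after seeing the data, 202 Zfp genes had a probe, 33 rose and 50 fell. Of all 16485 genes in that setting, 3131 rose and 3818 fell.

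**Figure D3:**
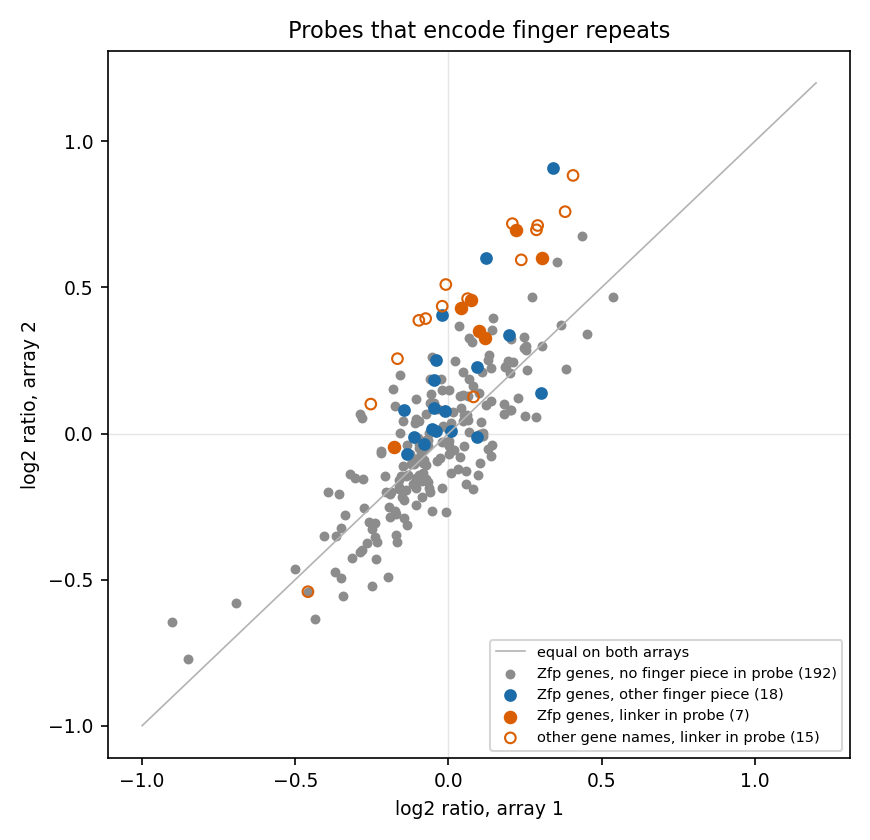
Log2 ratio of ETO2 siRNA over control siRNA on array 1 against array 2 for the 217 Zfp genes, split by whether the probe holds no finger piece (grey), a linker (filled orange) or another finger piece (blue), with 15 linker probes of other gene names (open orange). All 7 filled and 14 of the 15 open orange points lie above the line of equal ratios.

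Brightest and second probes correlated less across Zfp genes than across other genes. At least 2 probes were kept for 106 Zfp genes and 1 probe for 111. Across the 106 genes the ratio of the brightest probe correlated with that of the second with a Pearson r of 0.255, against 0.473 across 5255 other genes, although the median absolute difference between the probes was 0.167 and 0.174. Of 18 rises with a second probe, 10 had the same sign there (55.6%, against 71.0% of 1154 rises of other genes). Of 28 falls, 15 did (53.6%, against 65.2% of 1453). The difference between the Zfp genes and other genes was not tested. Zfp330, the brightest Zfp gene, fell on its brightest probe (-0.28 ± 0.03, adjusted p = 0.00211) and read 0.37 on its second.

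**Figure D4:**
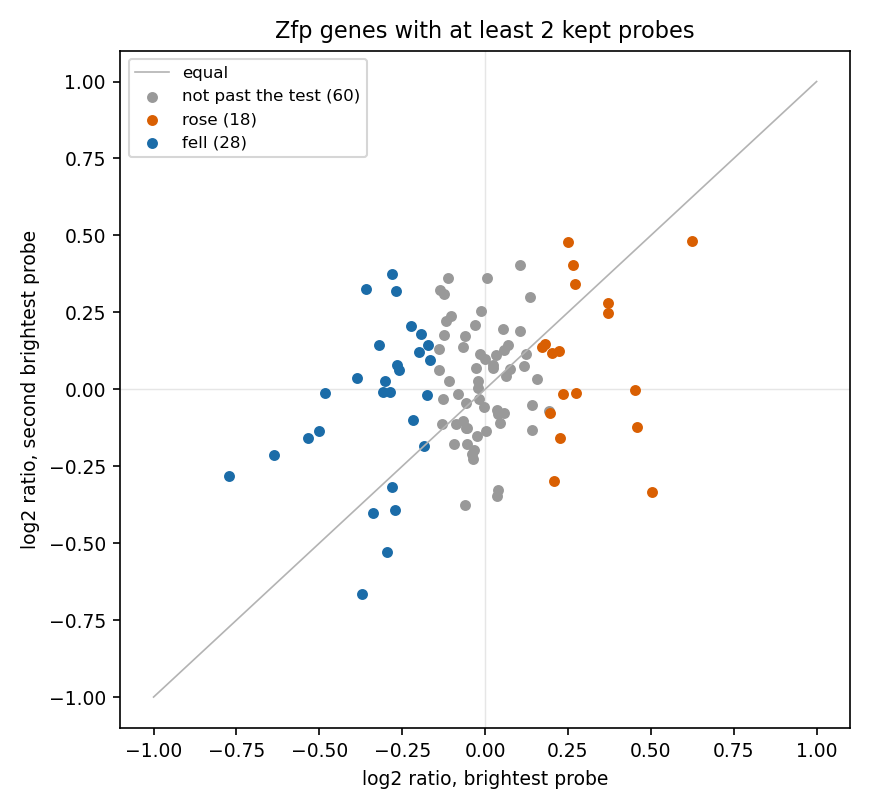
Log2 ratio (ETO2 siRNA over control siRNA, mean of 2 arrays) of the brightest probe against the second brightest for the 106 Zfp genes with at least 2 kept probes, coloured by the call on the brightest probe. Of 18 genes called as risen 10 lie above 0 on the second probe, and of 28 called as fallen 15 lie below 0.

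The calls were also counted by brightness and by probe GC content, with no test. Among the 72 brightest Zfp genes 10 rose (13.9%) and 24 fell (33.3%), against 26.8% and 26.8% of all genes in the same range of levels. In the middle 72, 16 rose and 14 fell (22.2% and 19.4%, against 22.6% and 27.6% of all genes there). In the 73 dimmest 12 rose and 11 fell (16.4% and 15.1%, against 8.88% and 15.6% of all genes there). With a probe under 40% GC, 18 of 82 Zfp genes rose and 15 fell, against 18.4% and 25.7% of all genes there. From 40% to under 50% GC, 14 of 92 rose and 23 fell, against 19.4% and 21.3% of all genes there. At 50% GC or over, 6 of 43 rose and 11 fell, against 16.4% and 19.6% of all genes there. The medians of these GC groups were 0.01, -0.05 and -0.10, against -0.02, -0.01 and -0.02 for all genes. The other 4 of the 5 brightest genes besides Zfp706 were Zfp330, Zfp313, Zfp207 and Zfp414. Zfp207 (BuGZ), which helps chromosomes align on the mitotic spindle, read -0.18 on array 1 and 0.15 on array 2, and Zfp414 read -0.13 and -0.14 (adjusted p = 0.0904). Zfp313, a ubiquitin ligase, read -0.07 and -0.04. Second probes read 0.26 for Zfp207, 0.32 for Zfp414 and -0.13 for Zfp313.

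The genes were also grouped by role, and the counts of each list stand against 18.4% rises and 22.3% falls among all genes. Of 16 factors of promoters and chromatin, 13 were measured, of which 6 fell and 1 rose, with a median of -0.14 against -0.02 for all genes. Zfp217 is the counterpart of human ZNF217, an oncogene product found with CoREST and LSD1. Its ratios were -0.28 and -0.40 (mean -0.34 ± 0.08, adjusted p = 0.000628). Zfp592, which joins ZNF687 and ZMYND8 in a chromatin complex in human cells, fell (-0.29 ± 0.06), and Zfp263 (-0.22), Zfp219 (-0.20), Zfp516 (-0.19) and Zfp161 (-0.19) fell too. Other probes of 3 of these genes did not fall with the brightest: Zfp592 had one at -0.0074, Zfp219 one at 0.12, and Zfp263 others at 0.21 and 0.19, of which those of Zfp219 and Zfp263 hold a finger piece. A second probe of Zfp161 read -0.18. Zfp516 drives brown fat genes in mice. Zfp384 rose (0.20 ± 0.24), with 0.03 on array 1 and 0.37 on array 2. Zfp687 (-0.14), Zfp644 (-0.06), Zfp423 (-0.02), Zfp143 (0.02), which drives promoters of small nuclear RNA genes, and Zfp238 (0.05) did not pass. Other probes read -0.13 and -0.37 for Zfp644 and 0.07 for Zfp143. On the processed signals 1 of these 13 fell and none rose.

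Blood genes split. Of 9 listed, 6 were measured, with 2 rises, 2 falls and a median of 0.02. Zfp148 (ZBP-89), which binds GATA-1 and GC-rich promoters, read -0.23 and -0.37 on the arrays and fell (-0.30 ± 0.10, adjusted p = 0.00168) on its brightest probe alone, since 3 others read 0.03, 0.05 and 0.31. Zfp710 fell as given above. Zfp281 and Zfp335 rose. Zfp335, needed for T cell development in mice, read 0.19 and 0.23 on its brightest probe, while a dimmer probe read -0.32 and -0.28. Zfp318, needed for IgD expression in mouse B cells, and the ubiquitin ligase Zfp91 stood at -0.0043 and 0.04. The probes of Zfp91 disagreed, with others at -0.35, 0.26 and 0.36, while those of Zfp318 read -0.06 and 0.04. Zfp521 and Zfp90 were too dim. On the processed signals 1 of the 6 fell and none rose. Under median centring all 6 fell, as did 10830 of all 16640 genes.

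For RNA and translation, 7 of 9 listed genes were measured, of which 3 fell and none rose (median -0.12). Beside Zfp706 these were Zfp326 (-0.27 ± 0.05), a DBIRD complex subunit that couples transcription to splicing, and Zfp622 (-0.22 ± 0.06), whose yeast counterpart acts in large ribosomal subunit maturation. Zfp593 (-0.12), Zfp346 (-0.05), which binds double-stranded RNA, Zfp106 (0.04) and Zfp598 (0.13), the ubiquitin ligase of collided ribosomes, did not pass. Other probes read 0.31 for Zfp593 and -0.33, 0.16 and 0.12 for Zfp106. The median of these 7 turned to 0.05 on the processed signals, where 1 fell. Of 7 embryonic and imprinting genes 4 were measured, and Zfp809 alone rose. Zfp445 (-0.14), which protects imprints, and Zfp296 (-0.13) did not pass, and Zfp57, the other imprint protector, was not well above background with ETO2 siRNA. Zfp42 (Rex1) was too dim.

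Some Zfp names that now belong to other kinds of proteins passed the test. Zfp289 (Arfgap2) rose by 0.27, while Zfp259 (Zpr1) at -0.28, Zfp364 (Rnf115) at -0.22, Zfp650 (Ubr3, a ubiquitin ligase) at -0.30 and Zfp469 (Tnrc18) at -0.34 fell. Among the other genes past the test, Zfp128 was not well above background in control and was at least 1.14-fold higher. Zfp128 was dim and was kept through the ETO2 siRNA channel alone, in which it was higher, so the filter favoured its rise. Zinc finger genes named otherwise were counted beside the Zfp genes, with no test of a difference. Of 28 Zbtb genes 4 rose and 8 fell (14.3% and 28.6%, median -0.07), and of 24 Zc3h and Zcchc genes 4 rose and 8 fell (16.7% and 33.3%, median -0.06). Of 13 Klf genes 3 rose and 4 fell (median -0.09), and of 13 Zscan and Zkscan genes 2 rose and 2 fell (median -0.04).

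Genes of the machinery that KRAB zinc fingers recruit were listed as the pathway around the Zfp proteins. Of 31, 29 were measured, of which 8 rose and 4 fell, with a median of 0.09 against -0.02 for all genes. Of all genes 18.4% rose and 22.3% fell. The median level of the list was 12.08. In the level range of the 72 brightest Zfp genes, 26.8% of all genes rose and 26.8% fell. The heterochromatin protein Cbx5 (HP1α) had levels of 11.57 with ETO2 siRNA against 11.15 with control siRNA on array 1, and 11.77 against 11.18 on array 2, a rise of 0.50 ± 0.12 (adjusted p = 2.78e-05). The deacetylase Hdac2 rose by 0.42 ± 0.11, and the histone methyltransferases Suv39h1 and Suv39h2 by 0.37 ± 0.05 and 0.26 ± 0.06. Mphosph8 (0.27) of the HUSH silencing complex, Uhrf1 (0.26), which guides maintenance DNA methylation, Sumo2 (0.20) and Atf7ip (0.20), the partner of SETDB1, rose too.

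Chd3, the NuRD remodeller that TRIM28 binds, fell most. Its ratios were -0.83 and -1.04 (mean -0.93 ± 0.15). Morc3 (-0.28), the histone chaperone Daxx (-0.25) and Cbx1 (HP1β, -0.21) fell as well. Trim28, Setdb1 and Cbx3 did not pass. Trim28 read 0.0042 and 0.19 on the arrays (mean 0.10, adjusted p = 0.277), Setdb1 read -0.13 and 0.05 (mean -0.04, adjusted p = 0.646), and Cbx3 (HP1γ) stood at -0.0079. The direction of this list turned with the scaling. Under median centring 25 of the 29 fell and none rose, with the list's median 0.13 below that of all genes. Of all 16640 genes 10830 fell and 466 rose under that scaling. On the processed signals 1 of the 29 fell and none rose, with a median of 0.08. Of all genes 1280 fell and 1198 rose on those signals.

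**Figure D5:**
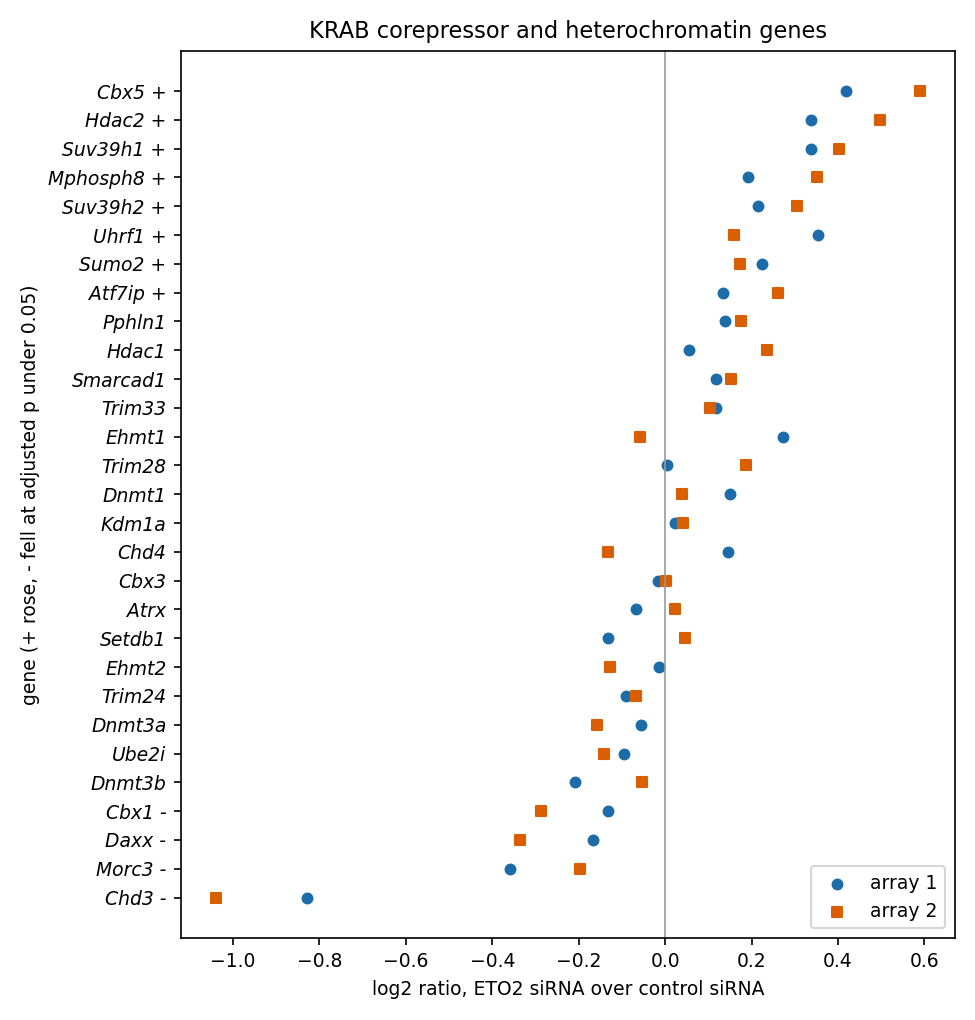
Log2 ratio of ETO2 siRNA over control siRNA on array 1 (circles) and array 2 (squares) for the 29 measured genes of the KRAB corepressor and heterochromatin list, with + for a rise and - for a fall. Chd3 lies lowest and Cbx5 highest, and Trim28 and Setdb1 lie near 0. With median centring no gene of the list rose and 25 fell, against 466 rises and 10830 falls among all 16640 genes.

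Many Zfp genes lie in clusters. By RefSeq gene order, 105 of the 217 had another zinc finger gene name as a neighbour, with 24 rises and 19 falls (median -0.02), and 111 had none, with 14 rises and 29 falls (median -0.04), where 18.4% of all genes rose and 22.3% fell. The difference between these groups was not tested. Without the genes whose brightest probe encodes a finger piece, these became 16 rises and 19 falls of 86, and 12 and 29 of 105. Of 42 neighbouring pairs of Zfp genes, 25 had ratios of the same sign, 3 pairs rose together (Zfp54 with Zfp51, Zfp712 with Zfp708, and Zfp81 with Zfp101), 3 fell together (Zfp329 with Zfp110, Zfp553 with Zfp771, and Zfp560 with Zfp26) and 3 moved apart.

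Promoters were searched for the letters of a GATA site on either strand (GATA with A or T before it and A or G after it), from 250 bases before to 50 after the RefSeq start. Of 182 Zfp genes with a promoter sequence, 36 held such letters (19.8%), against 30.2% of all 27025 promoters searched. Those 27025 promoters were not limited to the 16640 genes tested on the array. The share was 24.3% in Zfp genes that rose (9 of 37), 6.98% in those that fell (3 of 43) and 23.5% in those not past the test (24 of 102). Median promoter GC content was 54.3% for Zfp rises, 60% for Zfp falls, 57.3% for Zfp genes not past the test and 52.7% for all promoters searched. A match of letters is not a binding site. The promoters of Zfp36 (chr7:28379179-28379478, minus strand) and Zfp101 (chr17:33394588-33394887, minus strand), in GRCm38.p6 from RefSeq, are printed as the largest fall and the largest rise that hold a match, which is in capitals (in Zfp101 it is read on the opposite strand).
Zfp36: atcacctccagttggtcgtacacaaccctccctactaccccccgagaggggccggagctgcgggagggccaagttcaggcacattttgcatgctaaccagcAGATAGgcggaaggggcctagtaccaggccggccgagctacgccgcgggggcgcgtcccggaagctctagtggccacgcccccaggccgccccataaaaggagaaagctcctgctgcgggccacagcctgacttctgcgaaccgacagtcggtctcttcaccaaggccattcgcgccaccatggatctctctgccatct
Zfp101: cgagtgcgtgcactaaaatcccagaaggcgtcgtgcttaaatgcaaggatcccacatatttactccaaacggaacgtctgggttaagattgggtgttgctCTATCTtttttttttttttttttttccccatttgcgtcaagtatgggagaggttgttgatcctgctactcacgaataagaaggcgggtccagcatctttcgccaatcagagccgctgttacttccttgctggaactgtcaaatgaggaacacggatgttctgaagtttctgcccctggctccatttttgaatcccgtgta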

How the data were processed

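Labelled RNA of ETO2 siRNA and control siRNA cells was measured on 2 two-colour arrays. Spots were read with Agilent Feature Extraction 9.1.3.1, and the deposited intensity values of spots and local background are linear scanner units without normalization, per the file headers. The deposited processed intensity was background-subtracted and dye-normalized by that software, as the file headers record. The authors' table of log10 ratios equals the scanner's log10 ratio within 0.0041 on 45018 features, and its sign is turned here. No build for the array was used here.

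In limma 3.58.1 (R 4.3.3), signals were corrected by normexp with an offset of 50 and normalized by loess, with 1639 control features at weight 0. Outlier flags removed 10 and 4 spots. Of 41174 probes, 24430 (59.3%) were well above background in the same channel on both arrays, and the brightest stood for each of 16640 gene names. Ratios on the log2 scale, computed from the deposited intensities, were tested against 0 by two-sided lmFit and eBayes, and p-values were adjusted by Benjamini-Hochberg (threshold 0.05). Each gene has 1 residual degree of freedom, and eBayes added 13.9 with a prior SD of 0.0907. Median spot signals were 82.8 and 77.5 scanner units (green) and 105 (red, both arrays), over backgrounds of 44 to 47. The number of arrays limits the precision.

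Zfp names were updated through RefSeq (178 by accession, 31 by symbol, 8 by synonym). Named are the 12 largest rises and 12 largest falls, the 5 brightest genes and the measured members of 6 role lists, plus genes singled out after their values were seen (Zfp128, renamed genes, neighbouring pairs and finger-probe genes). Members and lists were chosen with earlier results of these data known. Protein features were not analysed here. On simulated arrays of 16640 genes, 52%, 92%, 100% and 100% of 50 genes each changed 1.2-fold, 1.5-fold, 2-fold and 4-fold were recovered, and 166 of 16440 unchanged genes were called, 10 of them unsaturated. The simulated arrays shared a smooth dye trend and had no dye effect of single probes. They therefore cannot show how many of the real calls come from such an effect. Alternatives were other normalization, offset, signals, deposited ratios, filters, probe rules and single arrays.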

Additional observations from a re-analysis of the deposited data

How the results depend on the processing

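Calls among Zfp genes numbered 87 (38 rises, 49 falls) and changed most with how signals were corrected and scaled. Median centring gave 171 (5 and 166), and the processed signals and the deposited ratios each gave 25 (12 and 13). Among all genes these settings gave 11296 (466 and 10830), 2478 (1198 and 1280) and 2372 (1149 and 1223). Of the 38 rises, 5 were also called as rises under median centring and 12 as falls. On the processed signals 11 of the 38 rises and 12 of the 49 falls were called the same way. The median Zfp ratio was -0.378 under median centring, where the median of all genes was -0.309, and between -0.0547 and -0.0274 on single arrays. Median centring turned Zfp281 (-0.182), Zfp39 (-0.016), Zfp52 (-0.017), Zfp563 (-0.086), Zfp580 (-0.077), Zfp68 (-0.004), Zfp75 (-0.044) and Zfp809 (-0.084) below 0. Without finger-encoding probes, an alternative added after seeing the data, Zfp273 read -0.123 and Zfp52 -0.001. Averaging all probes turned Zfp330 to 0.046, Zfp414 to 0.093 and Zfp207 to 0.040. Zfp207, which did not pass the test, read 0.088 with either of those other signals, and from -0.180 to 0.153 on single arrays. The processed signals differ from the main setting in both background correction and dye normalization. The cause was not tested. With no dye swap, a dye effect of a probe and an effect of the siRNA cannot be told apart, and the offset draws the ratios of dim genes toward 0. The test of the ratios is itself paired, since the channels are paired within each array, and 2 arrays leave no further block.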
